A study of Mus musculus with 4 samples.

Results

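The genes described here are 8 small nucleolar RNA (snoRNA) host genes, *Snhg1*, *Snhg3*, *Snhg5*, *Snhg8*, *Snhg12*, *Gas5*, *Dancr* and *Epb41l4aos*, and the nuclear long noncoding RNAs (lncRNAs) *Malat1* and *Neat1*. They were picked by symbol and not by a rule on measured values, but with earlier results of these data known. All 10 were found among 19645 features, 9 under the symbol itself and *Epb41l4aos* only under its older symbol *Epb4.1l4aos*. None was absent. All 10 passed the minimum mean of 0.5 FPKM (fragments per kilobase of transcript relative to all mapped fragments) and were among the 12990 features tested. *Snhg1* was listed together with *Snord22*, *Dancr* together with *Snora26*, and *Snhg12* together with *Snora16a*, *Snora44*, *Snora61* and *Snord99*, so each of these values belongs to the joint entry.

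A snoRNA host gene carries snoRNAs inside its introns. Splicing releases the intron, which is trimmed to the snoRNA. The snoRNA then joins a protein complex (snoRNP) in the nucleolus, where box C/D snoRNAs guide 2′-O-methylation and box H/ACA snoRNAs guide pseudouridylation of ribosomal and spliceosomal RNA. The spliced exons of many noncoding host genes have little coding capacity and are removed in the cytoplasm by nonsense-mediated decay. *Malat1* RNA is held in nuclear speckles, bodies rich in splicing factors. *Neat1* RNA is the scaffold of paraspeckles, and only its long isoform builds them. Short and long *Neat1* isoforms share their start and had a joint value here.

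The 4 libraries compared were 2 of wild-type (WT) mouse embryonic stem cells (ESCs) and 2 of *Bmal1* KO ESCs, in a study of the clock transcription factor BMAL1 in pluripotent cells. BMAL1 is encoded by *Arntl*. The KO cells were a clone made with CRISPR-Cas9, in which a deletion shifts the reading frame of this gene. Per the methods of the study, ESCs grew on gelatin with serum and LIF. The libraries were made from total RNA after removal of ribosomal RNA, without selection for poly(A) tails, so RNAs without a tail can be represented. FPKM do not give back read numbers, and sequencing depth is therefore unknown.

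*Arntl* itself had 6.05 and 6.29 FPKM in WT and 5.95 and 5.92 FPKM in KO, which checks the label little because a frameshift need not lower the RNA. ESC markers were high in all libraries, with *Dppa5a* at 2881 to 3045 FPKM. *Klf4* and *Tdgf1* were lower in KO with log2 fold changes of -0.46 and -0.36 (adjusted p = 0.0177 and 0.0322, limma). They are 2 of the 8 markers, against 5.6% of all tested features that were lower. The call of *Tdgf1* was lost under 7 of 14 other settings and that of *Klf4* without the variance trend (adjusted p = 0.0582, limma). In 3 of the 7 settings 1 library was left out, and the log2 fold change of *Tdgf1* was then -0.37 to -0.32. Such a fit leaves 1 library in a genotype, so that its spread comes from the other genotype alone, and the lone library is assumed to vary like it. Of 9 fibroblast markers, 7 were listed, only *Thy1* passed the minimum, and their summed FPKM was 2.25 and 1.92 in WT and 3.40 and 2.69 in KO. The genotypes also stood apart on the Y chromosome. *Ddx3y*, *Eif2s3y* and *Uty* had 0.0965 to 2.04 FPKM in WT and 3.58 to 53.1 FPKM in KO. *Kdm5d*, also Y-linked, was listed at 0 in both WT libraries and at only 0.0080 and 0.0168 FPKM in KO, below the minimum. Features without a symbol held 26.8% and 37.3% of the summed FPKM in WT and 19% and 18.1% in KO. The part of these differences between the lines in the results below was not tested. An effect of the genotype and a property of the KO clone or of the WT cells cannot be told apart.

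The 8 host genes hold 28 annotated snoRNA genes in the GENCODE annotation of GRCm38, all on the strand of the host and intronic in at least 1 transcript. *Gas5* holds 9, *Snhg1* 8, *Snhg12* 4, *Snhg3* and *Snhg5* 2 each, and *Snhg8*, *Dancr* and *Epb41l4aos* 1 each. A C box (TGATGA) had to begin in the first 15 bases and a D box (CTGA) in the last 15. Both boxes were found in 15 of the 28, an ACA triplet 3 bases from the 3′ end in 7, and neither in 6. Some of these 6 hold the letters of a box outside these limits or without the other box. The snoRNAs of *Snhg5* and *Snhg8*, which fell in KO, are given with a snoRNA each of *Snhg12* and *Dancr*, whose hosts did not pass the test. Sequences are the GRCm38 reference on the strand of the gene, 5′ to 3′, and capitals mark the C and D boxes or the ACA triplet.
Snord50a in *Snhg5*, minus strand of chr9:88521529-88521600: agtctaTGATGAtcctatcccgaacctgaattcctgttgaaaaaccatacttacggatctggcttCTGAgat
Snord50b in *Snhg5*, minus strand of chr9:88521797-88521868: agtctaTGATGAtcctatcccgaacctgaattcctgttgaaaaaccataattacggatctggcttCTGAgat
Snora24 in *Snhg8*, minus strand of chr3:123507937-123508066: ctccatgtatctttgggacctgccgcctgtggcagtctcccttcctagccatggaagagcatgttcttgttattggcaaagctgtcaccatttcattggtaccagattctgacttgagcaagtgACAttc
Snord99 in *Snhg12*, plus strand of chr4:132310691-132310764: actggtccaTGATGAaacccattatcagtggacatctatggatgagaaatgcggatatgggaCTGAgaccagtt
Snora26 in *Dancr*, plus strand of chr5:74093530-74093650: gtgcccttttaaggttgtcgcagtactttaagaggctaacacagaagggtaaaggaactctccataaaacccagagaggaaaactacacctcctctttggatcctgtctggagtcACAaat
The 2 snoRNAs of *Snhg5* have the same length, 72 bases, and differ by the substitution C50A, with the base of Snord50a given before that of Snord50b and positions counted from 1 at the 5′ end. Reads of copies this alike cannot be assigned with certainty, and the FPKM of a host row does not measure the snoRNAs.

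Many host genes are known as 5′TOP genes, whose RNA begins with a run of C and T bases. RefSeq promoter windows on GRCm38.p6 were at hand for 8 of the 10 genes, not for *Neat1* and *Epb41l4aos*. They were 9 windows, since *Gas5* has 2. A run of at least 5 C or T bases that covered the annotated start or lay within 5 bases of it occurred in 5 of the 9 windows, with 1 of the 2 windows of *Gas5* among them, against 32.9% of 32851 promoters. The windows printed run from 30 bases before the start to 30 bases after it, and capitals mark the longest such run. They show hosts that fell (*Snhg8*, *Snhg5*) beside hosts that did not pass the test (*Snhg1*, *Snhg12*).
Snhg8, minus strand of chr3:123508307-123508366: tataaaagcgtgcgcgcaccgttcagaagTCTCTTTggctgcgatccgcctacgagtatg
Snhg5, minus strand of chr9:88522868-88522927: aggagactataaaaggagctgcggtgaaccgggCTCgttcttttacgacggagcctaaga
Snhg1, plus strand of chr19:8723457-8723516: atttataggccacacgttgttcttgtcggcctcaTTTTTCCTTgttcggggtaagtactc
Snhg12, plus strand of chr4:132308648-132308707: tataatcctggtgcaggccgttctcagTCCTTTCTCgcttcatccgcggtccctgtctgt
The run had 7 bases in *Snhg8*, 9 in *Snhg12* and *Snhg1*, and 3 in *Snhg5*. In *Snhg5* a longer run begins just beyond the limit of 5 bases and was not counted. A link between the length of the run and the change in KO was not tested. BMAL1 with its partner CLOCK is known to bind E-boxes. The letters CACGTG, which read the same on both strands, were in none of the 9 RefSeq windows of 300 bases, against 7.15% of all promoters. CACGTT, searched on both strands, was in 1, that of *Snhg1*, against 4.68%. No match in these windows says nothing about binding elsewhere.

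All 10 genes were well expressed, from the 87.5th percentile of mean FPKM over all features for *Gas5* to the 98.0th for *Snhg8*. In WT, the level per length followed the order *Snhg8* (331 ± 13.0 FPKM, SD, n = 2), *Epb41l4aos* (271 ± 29.2), *Snhg1* (249.99 ± 9.31), *Snhg3* (178 ± 23.1), *Snhg5* (154 ± 13.3), *Snhg12* (92.5 ± 1.94), *Malat1* (54.2 ± 27.7), *Dancr* (52.8 ± 0.350), *Neat1* (45.4 ± 3.75) and *Gas5* (40.9 ± 2.58). Of these neighbours, the libraries overlapped between *Epb41l4aos* and *Snhg1*, *Snhg3* and *Snhg5*, *Malat1* and *Dancr*, and *Neat1* and *Gas5*. In KO, *Snhg8* (209 ± 16.4 FPKM) and *Snhg1* (206 ± 3.56) overlapped at the top, and *Neat1* (81.6 ± 4.44) stood above *Malat1* (55.6 ± 10.1) and *Dancr* (51.3 ± 1.56). *Gas5*, with 37.2 ± 0.0535 FPKM, was again the lowest.

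**Figure D1:**
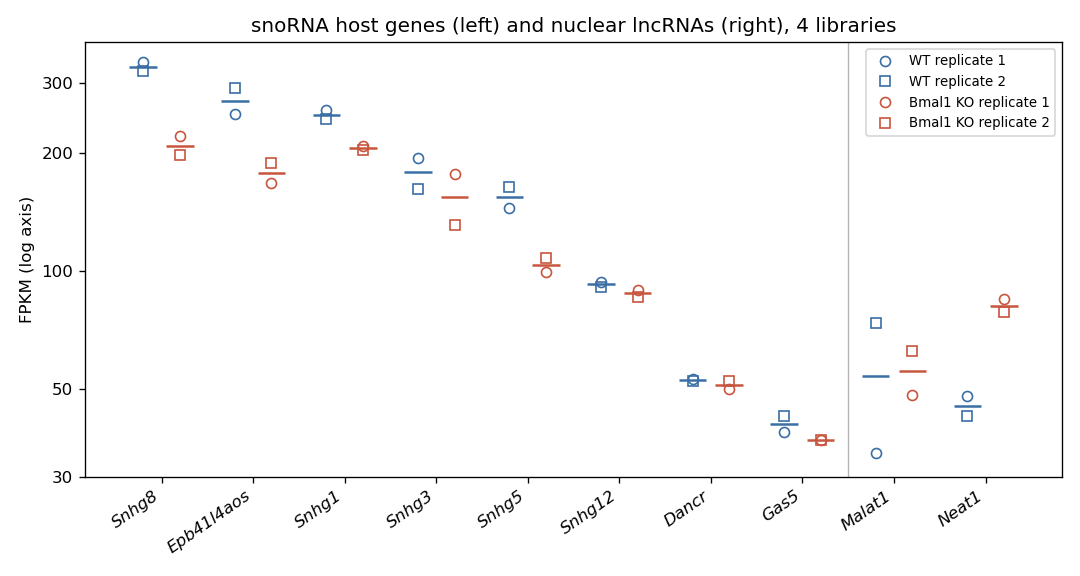
FPKM (log axis) of the 8 snoRNA host genes, left of the grey line, and of *Malat1* and *Neat1*, right of it. Blue marks are WT and red marks *Bmal1* KO libraries, circles are replicate 1, squares replicate 2 and bars group means. The KO marks lie below the WT marks for 7 host genes, overlap for *Snhg3* and *Malat1*, and lie above for *Neat1*.

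KO was compared with WT in limma on log2(FPKM + 0.1), with p-values adjusted by Benjamini-Hochberg over all tested features. *Snhg8*, *Epb41l4aos* and *Snhg5* fell and *Neat1* rose in KO, while the other 6 genes did not pass an adjusted p of 0.05. Thus 3 of 10 genes were lower, against 5.6% of all tested features (728), and 1 was higher, against 6.85% (890). With FPKM rescaled to the same sum over features with a symbol, the background became 518 lower and 1076 higher features, and the 10 genes again gave 3 and 1. The study also asked for more than a 2-fold change, which none of the 10 genes reached, against 4.14% of all features that met both criteria. Of the 6 genes that did not pass, only *Snhg1* had an unadjusted p under 0.05 in limma.

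*Snhg8* (ENSMUSG00000104960.1), the host of the H/ACA snoRNA Snora24, lies on the minus strand of chromosome 3 of GRCm38 from 123507552 to 123508404 and had the highest level in WT. Its 2 WT libraries, replicate 1 given before replicate 2 here and for each gene that follows, had 340 and 322 FPKM, and its 2 KO libraries 220 and 197 FPKM. Both KO libraries lay below both WT libraries, at 0.630 of the WT mean. KO differed from WT by -0.67 on the log2 scale (SE 0.09, 95% interval -0.88 to -0.46, adjusted p = 0.00977, limma). Without KO replicate 2 or WT replicate 1 the value was -0.59 or -0.63, and *Epb41l4aos* and *Snhg5* then had the lower values, so no order is given among the 3 genes.

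*Snhg5* (ENSMUSG00000097195.9, minus strand of chromosome 9 from 88521050 to 88522929), the host of Snord50a and Snord50b, had 145 and 164 FPKM in WT and 99.7 and 108 FPKM in KO. Again the groups did not overlap, and the KO mean was 0.673 of the WT mean. Its log2 fold change was -0.57 (SE 0.09, 95% interval -0.79 to -0.34, adjusted p = 0.0174, limma). Without a variance trend in limma the adjusted p was 0.0582.

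*Epb41l4aos* (ENSMUSG00000087590.2, plus strand of chromosome 18 from 33794892 to 33795986) is an antisense partner of the protein-coding *Epb41l4a*, a gene of the band 4.1 family. Its FPKM was 251 and 292 in WT and 167 and 189 in KO, with no overlap. Its log2 fold change was -0.61 (SE 0.11, 95% interval -0.87 to -0.35, adjusted p = 0.0218, limma). The adjusted p in limma rose to 0.0519 when low features were kept and to 0.0665 without the variance trend. Its row carried the same coordinates, 33794892 to 34007645, as that of *Epb41l4a*, so the division of reads between both genes is uncertain. *Epb41l4a* had 23.4 and 24.9 FPKM in WT and 25.2 and 26.2 FPKM in KO, a log2 fold change of 0.09 (SE 0.08, adjusted p = 0.516, limma). The difference between both genes was not tested.

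*Snhg1* (ENSMUSG00000108414.1, plus strand of chromosome 19 from 8723475 to 8726443), the host of Snord22 and 7 further snoRNA genes, had 257 and 243 FPKM in WT and 208 and 203 FPKM in KO. Both KO libraries were below both WT libraries, with a log2 fold change of -0.28 (SE 0.07, 95% interval -0.46 to -0.10). The adjusted p was 0.0597 in limma, and the unadjusted p of the same limma test was 0.00839, so *Snhg1* did not pass.

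*Snhg3* (ENSMUSG00000085241.7, minus strand of chromosome 4 from 132348014 to 132353686) is the host of Snora73a and Snora73b and overlaps *Rcc1* on the same strand and *Gm17300* on the opposite strand. Its FPKM was 194 and 162 in WT and 176 and 131 in KO, and replicate 1 was higher in both genotypes. The groups overlapped, and the log2 fold change of -0.22 had a 95% interval from -0.62 to 0.18 (adjusted p = 0.415, limma). The value rested on single libraries, with -0.01 without KO replicate 2, -0.09 without WT replicate 1, -0.35 without WT replicate 2 and -0.43 without KO replicate 1. Within each replicate number KO was below WT, and a replicate block in limma gave an adjusted p of 0.0347, but no source says that the numbers pair the libraries.

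*Gas5* (ENSMUSG00000053332.13, plus strand of chromosome 1 from 161034422 to 161038539), named for its rise in growth-arrested cells, had 39.1 and 42.7 FPKM in WT and 37.3 and 37.2 FPKM in KO. The KO libraries lay just below, and the 95% interval of the log2 fold change (-0.13) ran from -0.33 to 0.07 (adjusted p = 0.329, limma). *Gas5* overlaps *Zbtb37* on the opposite strand, and whether the reads were counted by strand is not given in the sources used here. *Dancr* overlaps *Gm43416* and *Malat1* overlaps *Gm37376* on the opposite strand too. Hence it is unknown whether reads were told apart for these genes, or for *Snhg3* and *Gm17300*. *Rcc1* and *Snhg3* share a strand, so counting by strand would not separate their reads.

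*Snhg12* (ENSMUSG00000086290.9, plus strand of chromosome 4 from 132308623 to 132311024), close to *Snhg3*, had 93.9 and 91.2 FPKM in WT and 89.7 and 86.1 FPKM in KO. Its log2 fold change was -0.07, with a 95% interval from -0.25 to 0.10 (adjusted p = 0.536, limma). *Dancr* (ENSMUSG00000106943.2, plus strand of chromosome 5 from 74093060 to 74095406), a lncRNA known as a repressor of progenitor differentiation and also the host of Snora26, had 53.0 and 52.5 FPKM in WT and 50.2 and 52.4 FPKM in KO. Its log2 fold change was -0.04, with a 95% interval from -0.22 to 0.14 (adjusted p = 0.737, limma). For both genes the interval leaves out a fall as far as those fitted for *Snhg8* and *Snhg5*. The ratio of *Snhg8* to *Snhg12* FPKM was 3.62 and 3.53 in the WT and 2.45 and 2.29 in the KO libraries.

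**Figure D2:**
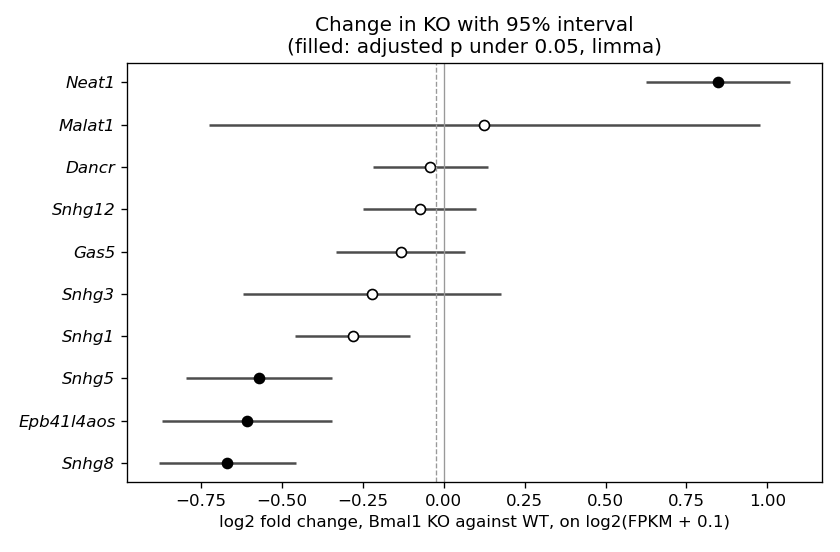
Log2 fold change of *Bmal1* KO against WT on log2(FPKM + 0.1) for each gene, with its 95% interval from limma. Filled points have an adjusted p under 0.05, the dashed line is the median of all tested features (-0.02). *Snhg8*, *Epb41l4aos* and *Snhg5* lie to the left, *Neat1* to the right, and *Malat1* has the widest interval.

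Both KO libraries lay below both WT libraries for 7 of the 8 host genes, against 31.7% of all tested features (4121). The same position was held by 24 of 38 tested rows of protein-coding snoRNA hosts and 11 of 17 of snoRNP proteins. Among the other noncoding hosts it was held by 7 of 15, so it was not particular to the 8 genes. All 8 host genes had a log2 fold change below 0, as had 6909 of the 12990 tested features. Only *Dancr* moved above 0, to 0.01 with quantile normalization and to 0.03 with the same sum over features with a symbol. The median of the 8 genes was -0.25, against -0.02 over all tested features. The summed FPKM of the 8 genes was 1373 and 1369 in WT and 1049 and 1004 in KO, so the mean sum was 25.1% lower. The total over features with a symbol was also lower in KO. As a share of that total, the 8 genes held 0.189% and 0.185% in WT and 0.148% and 0.146% in KO. Without *Epb41l4aos*, whose reads are uncertain, the sums were 1122 and 1077 in WT and 882 and 815 in KO. In bulk samples, fewer cells with an RNA and less of it per cell cannot be told apart.

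*Neat1* (ENSMUSG00000092274.3, minus strand of chromosome 19 from 5824708 to 5845478) rose, with 48.0 and 42.7 FPKM in WT and 84.7 and 78.5 FPKM in KO. Both KO libraries were above both WT libraries, which was true of 27.0% of all tested features (3512), and the KO mean was 1.80 times the WT mean. The rise was 0.85 on the log2 scale (SE 0.09, 95% interval 0.62 to 1.07, adjusted p = 0.00628, limma). It passed under each of the 10 other settings that used all 4 libraries, with adjusted p of at most 0.0274 in limma. Over all 14 other settings, those with 1 library left out among them, its log2 fold change was between 0.76 and 0.93.

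*Malat1* (ENSMUSG00000092341.3, minus strand of chromosome 19 from 5795690 to 5802672) lies beside *Neat1* and varied widely between replicates. It had 34.6 and 73.8 FPKM in WT and 48.4 and 62.7 FPKM in KO, so the WT libraries lay on either side of both KO libraries. The WT replicates differed 2.14-fold, and only 1.89% of tested features (246) differed more between them, whereas the KO replicates differed 1.30-fold. The log2 fold change of 0.13 had a 95% interval from -0.72 to 0.98 (adjusted p = 0.839, limma), which holds both 0 and the value fitted for *Neat1*. WT replicate 1 and WT replicate 2 each decided the value, since leaving out the former gave -0.42 and leaving out the latter 0.67. Neither is given with a p, because leaving out a WT library removes the spread between the WT replicates from the fit. Without KO replicate 2 it was -0.06 and without KO replicate 1 0.31. *Neat1* differed less between replicates, and the ratio of *Neat1* to *Malat1* FPKM was 1.39 and 0.579 in WT and 1.75 and 1.25 in KO. *Malat1* is annotated as an RNA of 6983 bases in 1 exon, and *Neat1* as one of 20771 bases.

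**Figure D3:**
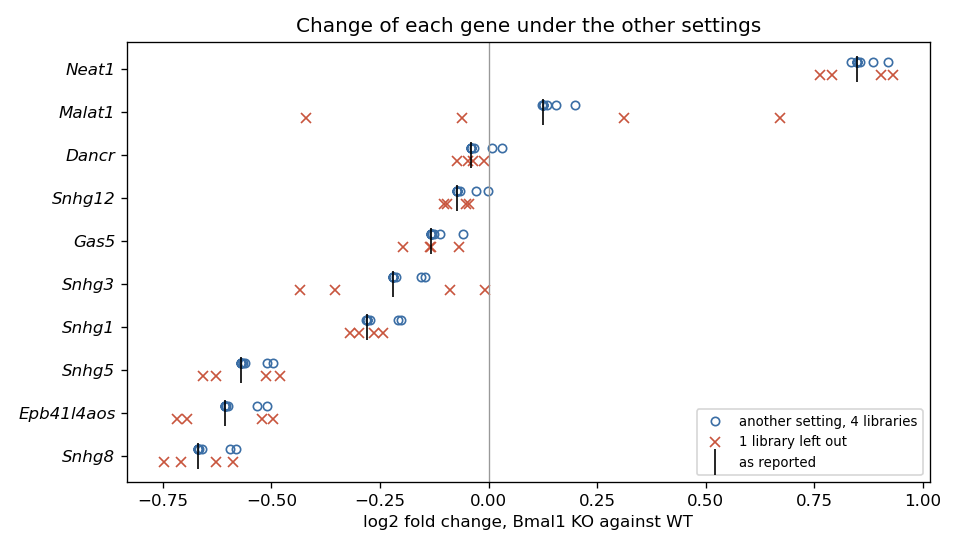
Log2 fold change of each gene as reported (black bars), under 10 other settings that use all 4 libraries (blue circles) and with 1 library left out (red crosses). All genes but *Dancr* and *Malat1* stay on their side of 0, and *Malat1* runs from -0.42 to 0.67 with the library left out.

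Among the other noncoding host genes, 3 rose. Of 17 symbols, 16 were found and 15 tested, and none fell by adjusted p in limma (2 at an unadjusted p under 0.05). With the replicate block 4 were higher and 3 lower, and without WT replicate 1 there were 4 and 1. The log2 fold change was below 0 for 11 of the 15, and both KO libraries lay below both WT libraries for 7 and above them for 4, against 31.7% and 27.0% of all tested features. The 3 that rose stand against 6.85% of all tested features. *Snhg20* had 71.4 and 74.2 FPKM in WT and 109 and 108 FPKM in KO, a log2 fold change of 0.58 (adjusted p = 0.00830, limma). *Snhg11* had 7.15 and 6.90 FPKM in WT and 11.2 and 11.2 FPKM in KO, with 0.66 (adjusted p = 0.0115, limma). *Rian*, a maternally expressed RNA of the imprinted *Dlk1*-*Dio3* region with many snoRNAs, rose by 0.41 on the log2 scale (adjusted p = 0.0192, limma), from 75.8 and 74.6 FPKM to 98.8 and 102 FPKM. Its row shares coordinates with 3 other symbols, and its call was lost without the variance trend (adjusted p = 0.0656, limma) and without KO replicate 2, where the log2 fold change was 0.39 (adjusted p = 0.0582, limma). *1110038B12Rik*, listed with *Snord52* and the highest of the list, had 168 and 171 FPKM in WT and 154 and 129 FPKM in KO (adjusted p = 0.149, limma). The median log2 fold change of the 15 genes was -0.06, and it was 0.01 with the same sum over features with a symbol.

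Protein-coding snoRNA hosts, largely ribosomal protein and translation factor genes, gave no call in limma among 38 tested rows, with 6 lower and 0 higher at an unadjusted p under 0.05. Their median log2 fold change was -0.14 and 36 of 38 were below 0, but with quantile normalization the median was 0.05 and 15 were below 0. *Rps2*, a ribosomal protein gene and the highest of the list, had 5560 and 5094 FPKM in WT and 5242 and 4684 FPKM in KO (adjusted p = 0.581, limma). The lowest log2 fold change of the list was -0.36.

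The proteins that bind and assemble snoRNPs include the C/D core (fibrillarin, NOP56, NOP58, SNU13), the H/ACA core (dyskerin, NHP2, NOP10, GAR1) and assembly factors such as RUVBL1 and RUVBL2. Of 17 tested rows, 1 fell and none rose, against 5.6% and 6.85% of all tested features. At an unadjusted p under 0.05 in limma 8 were lower, but the share of all tested features at that p is not given here. The median was -0.23, and -0.15 with quantile normalization. *Rrp9*, the U3 snoRNP protein, had 165 and 156 FPKM in WT and 129 and 113 FPKM in KO, a log2 fold change of -0.41 (adjusted p = 0.0396, limma), a call lost under 6 of 14 settings, among them those without KO replicate 2 (log2 fold change -0.32) and without WT replicate 1 (-0.37). *Nhp2*, the highest of the list by its mean level and in a row with the coordinates of *Rmnd5b*, had 547 and 519 FPKM in WT and 530 and 475 FPKM in KO (adjusted p = 0.551, limma). *Rn45s*, the ribosomal RNA precursor on which snoRNAs act and which depletion is meant to remove, had 533 and 539 FPKM in WT and 462 and 400 FPKM in KO (adjusted p = 0.0842, limma).

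Paraspeckle proteins bind *Neat1* RNA. Of 12 tested, none rose and 1 fell, against 6.85% and 5.6% of all tested features. *Hnrnph3*, an RNA-binding protein, fell, with 31.4 and 32.7 FPKM in WT and 24.9 and 25.7 FPKM in KO and a log2 fold change of -0.34 (adjusted p = 0.0433, limma). Its row shares coordinates with *Rufy2*, and the call was lost under 7 of 14 settings, among them each that left out 1 library, where the log2 fold change was -0.37 to -0.31. The median of the list was -0.06, and 0.02 with the same sum over features with a symbol.

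For *Malat1*, the speckle and SR splicing proteins gave no call among 15 tested in limma, and 0 at an unadjusted p under 0.05. Their median was 0.03, and *Srsf2*, the highest, had 490 and 524 FPKM in WT and 431 and 462 FPKM in KO (adjusted p = 0.195, limma). The nonsense-mediated decay factors, which degrade spliced host RNAs, gave no call in limma among 14 tested, with 2 higher and 1 lower at an unadjusted p under 0.05. Their median was -0.04, and 0.03 with the same sum over features with a symbol. *Eif4a3*, a subunit of the exon junction complex, had 260 and 260 FPKM in WT and 255 and 235 FPKM in KO (adjusted p = 0.495, limma).

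Other lncRNAs were read beside *Neat1*. Of 20 symbols, 16 were found and 12 tested. In limma 3 rose and none fell, against 6.85% and 5.6% of all tested features. The log2 fold change was above 0 for 9 and below 0 for 3. At an unadjusted p under 0.05 in limma, 4 were higher and 1 was lower. *Firre*, a nuclear lncRNA of the X chromosome, had 10.4 and 9.92 FPKM in WT and 18.5 and 16.9 FPKM in KO, a log2 fold change of 0.80 (adjusted p = 0.00758, limma), in a row with the same coordinates as *Gm35612*. *Lncenc1*, an ESC-expressed lncRNA listed as *Lincenc1*, had 26.6 and 26.7 FPKM in WT and 43.7 and 42.6 FPKM in KO, with 0.69 (adjusted p = 0.00611, limma). Its row has the coordinates of a feature without a symbol. *Mirg*, which lies in the same imprinted region as *Rian* and was listed jointly with 8 miRNA symbols, had 19.8 and 18.9 FPKM in WT and 30.8 and 26.2 FPKM in KO, with 0.55 (adjusted p = 0.0265, limma). The call of *Mirg* was lost without the variance trend (adjusted p = 0.0694, limma), with low features kept (adjusted p = 0.0551, limma) and without KO replicate 1, where the log2 fold change was 0.44. The median of the 12 was 0.16.

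**Figure D4:**
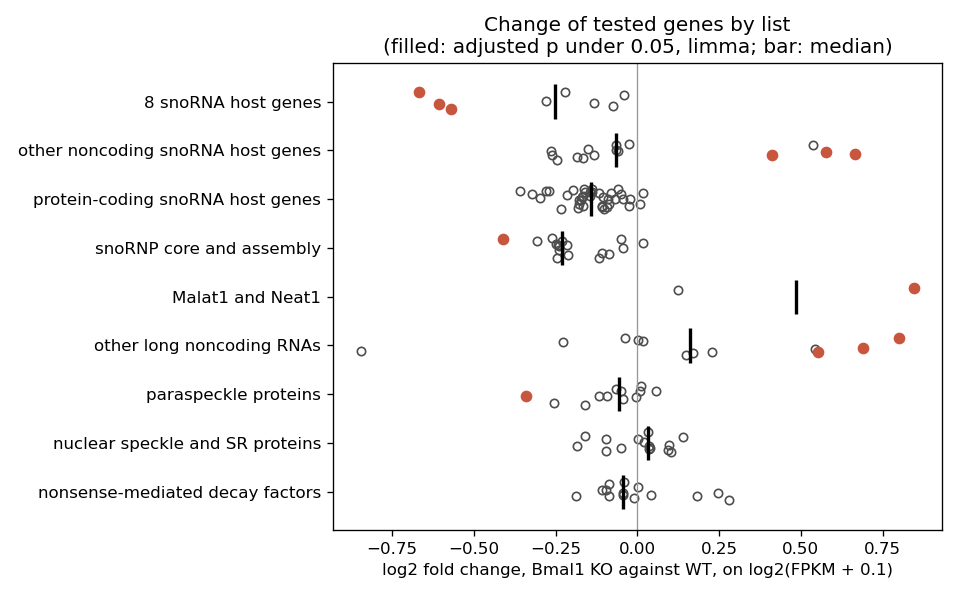
Log2 fold change of *Bmal1* KO against WT for the tested genes of each list, with a bar at the median. Filled points have an adjusted p under 0.05 in limma. The filled points lie left of 0 among the 8 snoRNA host genes and right of 0 among the other noncoding host genes and the other lncRNAs.

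The genes that lie beside the 10 on the chromosome gave no call among 12 tested in limma, with 3 lower and 0 higher at an unadjusted p under 0.05 and a median of -0.10. *Wdr74*, a ribosome biogenesis gene beside *Snhg1*, was the highest of the list, in a joint entry with *Stx5a* and *1700092M07Rik* that had 164 and 167 FPKM in WT and 152 and 139 FPKM in KO (adjusted p = 0.171, limma). The difference between each of the 10 genes and its neighbour was not tested.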

How the data were processed

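RNA from 2 WT and 2 *Bmal1* KO ESC libraries was depleted of ribosomal RNA. The authors aligned reads with TopHat2 2.1.1 and Bowtie2 2.3.0 to GRCm38, estimated expression with Cufflinks 2.2.1 and deposited FPKM per feature, with no read counts, so depth is unknown and precision rests on replicate spread alone. The study names biological duplicates but no separate cultures, so p-values measure only the spread between these libraries, which may be technical. Starts in the files count from 0, and 1 was added.

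FPKM were analysed as log2(FPKM + 0.1). Fold changes on this scale understate those of low genes. The 12990 features whose mean reached 0.5 FPKM were tested with limma 3.58.1 (R 4.3.3, trend, two-sided, Benjamini-Hochberg), a script tested on simulated data. Tables and plots were made in Python 3.11.15 with pandas 2.3.3, numpy 2.4.6, matplotlib 3.10.9 and scipy 1.17.1. Alternatives were other pseudocounts, filters and scalings, no variance trend, sums by symbol, a replicate block and each library left out.

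The genes and lists were chosen with earlier results of these data known. Of each other list, at most 4 genes are named, those with an adjusted p under 0.05 by size of change, then the one with the highest mean FPKM. A gene that this rule would name is not reported here. Counts at an unadjusted p under 0.05 have no share over all tested features beside them, so they are not set against a background. Older symbols were matched through RefSeq. Of the RNA quality list, no mitochondrial symbol was found. Sequences come from the GRCm38 genome with GENCODE and from RefSeq windows.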

Additional observations from a re-analysis of the deposited data

How the results depend on the processing

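Of the 10 genes, *Neat1* and *Snhg8* passed under each of 10 planned settings that used all 4 libraries. These settings reuse the same libraries and add no replicates. Passes with 1 library left out are not counted, because the spread then comes from the other genotype alone. Without a variance trend only these 2 genes passed (adjusted p = 0.0274 and 0.0385, limma), and 457 features were lower in KO. With no filter on low values, 571 features were higher and 380 lower and 3 genes passed. The median of the host genes was -0.18 with quantile normalization and -0.18 with the same sum over features with a symbol. *Dancr* reversed to 0.0075 and 0.0316 under these settings, and *Malat1* to -0.06 without KO replicate 2 and -0.42 without WT replicate 1, against 0.67 without WT replicate 2. The cause was not tested. With 1 library left out, the host median ran from -0.37 to -0.20. Without *Epb41l4aos*, a setting chosen after seeing the data, 3 genes passed and the host median was -0.22.

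The replicate numbers are shared by both genotypes, but nothing says that they mark a batch, and deviations of equal numbers correlated with r = 0.0712 (Pearson) and rho = 0.387 (Spearman) across 12990 features, which are not independent replicates. With the replicate number as a block, 1807 features were higher and 2245 lower and 6 of the 10 genes passed, with *Snhg1* (adjusted p = 0.00892, limma) and *Snhg3* (adjusted p = 0.0347, limma) added. An exact permutation test of 2 against 2 libraries cannot give a p below 0.333.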

Other observations

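Of the small RNAs listed under a symbol of their own, 3 are named here, after their values were seen, for their wide spread between replicates. Snora78 was listed at 0 in 3 libraries and had 814 FPKM in KO replicate 2. Snora23 had 77.5 and 137 FPKM in WT, 221 FPKM in KO replicate 1 and was listed at 0 in KO replicate 2. Snora74a had 41.1 and 101 FPKM in WT, was listed at 0 in KO replicate 1 and had 43.3 FPKM in KO replicate 2. The row of Snora23 has the coordinates of *Ipo7*, and that of Snora74a those of a joint entry of *Mir1949* and *Snhg4*. The division of reads at these places is uncertain. Of 17 tested rows with small structural RNAs, 7 are joint entries with a host gene, *Snhg1*, *Snhg12* and *Dancr* among them. With all 4 libraries, none of the 17 passed an adjusted p of 0.05 in limma, and 4 were lower and 0 higher at an unadjusted p under 0.05. Of these 4 rows, 3 were joint entries and the other was *Rn45s*, the ribosomal RNA precursor. With 1 library left out, when the spread comes from the other genotype alone, 1 to 3 were higher and 1 to 4 lower.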
